A study of Mus musculus with 8 samples.

Results

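The 7 orphan nuclear receptor genes *Nr0b1*, *Esrrb*, *Esrra*, *Nr5a2*, *Nr6a1*, *Nr2f6* and *Nr2c2* were taken by symbol from the 50902 genes of an RNA-seq table of mouse ESCs. They are 7 of the 49 genes of the mouse nuclear receptor superfamily, and all 7 were above 0 in every library. They were selected with earlier results of the same comparison known, so their differences between the lines are given as values with no p-value. Where a fit places a member past the threshold used for all genes, this is stated as a description and is no test of the member. Both groups of 4 libraries came from E14, an established mouse ESC line grown in N2B27 medium with LIF and 2i, the pair of kinase inhibitors that holds ESCs in the ground state. In each line, PiggyBac transposase had inserted a Flag- and HA-tagged *Baz2a* transgene that the siRNA does not recognize, and in both the endogenous *Baz2a* was targeted by siRNA, with collection 3 days after transfection. ESC + F/H-BAZ2Ar WT carried the intact BAZ2A, and ESC + F/H-BAZ2Ar ΔTAM carried BAZ2A without its TAM domain, the part of this chromatin remodelling subunit that binds RNA. The methods describe single-cell clones, so each condition is 1 derived line, and the labels do not say that replicates are separate cultures. Every p-value therefore measures the spread between these libraries, and differences between 2 clones cannot be told apart from those between the transgenes.

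Nuclear receptors are transcription factors that bind short hormone response elements in DNA, and many are switched by a lipid or steroid ligand. Orphan receptors are those for which no physiological ligand was known when they were named. Several of them act in ESCs: ESRRB and NR5A2 bind and activate pluripotency genes, NR0B1 lacks the usual DNA-binding domain and works as a cofactor that represses other receptors, and NR6A1 represses *Pou5f1* when ESCs differentiate. ESRRA is best known for driving genes of mitochondrial metabolism, and NR2F6 and NR2C2 belong to families that mostly repress.

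The hexamer AGGTCA is the half-site that most of these receptors recognize, and a single ESRRB or NR5A2 molecule binds an extended form of it. TCNAGGTCA, with any base before AGGTCA, was taken as a loose pattern for that form. Both were searched on either strand in the 250 bases before each annotated start of the RefSeq annotation of GRCm38.p6. All 7 members were matched, with 10 starts among them. Of these 10 windows, 3 held AGGTCA, 1 each of *Nr0b1*, *Nr5a2* and *Nr6a1*. Among all 32851 windows of this length, 4607 (14.02%) held AGGTCA and 356 (1.08%) held TCNAGGTCA. The pattern TCNAGGTCA was chosen in part after the *Nr0b1* window, which has G at the open base, had been seen. Each TCNAGGTCA contains an AGGTCA, and the *Nr0b1* window held the only match to the pattern among the members. Its AGGTCA began 126 bases before the start. Because of how the pattern was chosen, nothing is read from this match. *Nr0b1* is the member with the greatest difference between the lines. The first 230 of the 250 bases of its window are shown, at chrX:86191525-86191754, plus strand, with the half-site in capitals. The bases next to the start are left out.

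Nr0b1 promoter: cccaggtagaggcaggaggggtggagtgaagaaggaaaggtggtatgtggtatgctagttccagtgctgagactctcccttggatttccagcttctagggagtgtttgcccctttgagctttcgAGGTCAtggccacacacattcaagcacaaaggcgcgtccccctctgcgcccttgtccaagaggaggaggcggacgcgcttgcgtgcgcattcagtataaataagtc

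The other half-sites are shown with 12 bases on either side, in the direction of transcription of the gene, so that capitals reading TGACCT mark a half-site on the opposite strand. *Nr5a2* had 1 half-site 64 bases before its first listed start, at chr1:136960495-136960524 on the minus strand. *Nr6a1* had 2 before its second listed start, 91 bases (chr2:38784589-38784618, minus strand) and 45 bases (chr2:38784543-38784572, minus strand) upstream. A match of letters in these windows is no evidence of binding, and binding was not measured in these libraries.

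Nr5a2 site: atggtttacagcAGGTCAtacatgctggaa
Nr6a1 site upstream: ccatgcacactgTGACCTtagagcctgaac
Nr6a1 site near the start: cggcttgtaaacTGACCTgtgaggatgacg

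The deposited values were RPKM per kilobase of genomic span, introns included, and between 6.56 M and 8.66 M reads per library were recovered on genes. *Baz2a*, the siRNA target and the gene of the transgene, was at 10.5 ± 0.529 RPKM in ESC + F/H-BAZ2Ar WT and at 18.3 ± 0.824 RPKM in ESC + F/H-BAZ2Ar ΔTAM (SD, n = 4), where endogenous and transgene reads are not separated. Markers of ESCs summed to 83.9 to 86.4 RPKM in the ESC + F/H-BAZ2Ar WT libraries and 71.8 to 77.4 RPKM in the ESC + F/H-BAZ2Ar ΔTAM libraries, with 2 of 6 genes lower. The 6 markers of 2-cell-like cells, a rare state in ESC cultures, summed to 0.239 to 0.333 RPKM against 1.56 to 1.68 RPKM. The 6 primitive endoderm markers summed to 0.0183 to 0.0445 RPKM in ESC + F/H-BAZ2Ar WT and 0.0361 to 0.0612 RPKM in ESC + F/H-BAZ2Ar ΔTAM. The 4 markers of primed epiblast summed to 0.290 to 0.331 RPKM in ESC + F/H-BAZ2Ar WT and 0.415 to 0.466 RPKM in ESC + F/H-BAZ2Ar ΔTAM, most of which was *Dnmt3b* (0.239 and 0.393 RPKM on average). *Otx2* went the other way (0.0101 and 0.00196 RPKM), *Pou3f1* was at 0.0539 and 0.0473 RPKM, and *Fgf5* was at 0 in every library. The 5 trophoblast markers summed to 0.467 to 0.634 and 0.447 to 0.663 RPKM, with *Eomes* at 0.159 and 0.118 RPKM and *Cdx2* at 0.260 and 0.342 RPKM. The 5 fibroblast markers summed to 0.118 to 0.171 and 0.106 to 0.172 RPKM, with *Col3a1* at 0 in every library and 0 of 1 tested called by limma on either scale. The part of these states in the receptor differences was not tested, and in bulk RNA fewer expressing cells and less RNA per cell cannot be told apart.

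*Nr0b1* was higher and *Esrrb* lower in ESC + F/H-BAZ2Ar ΔTAM, *Nr6a1* was higher and *Nr5a2* lower, and the ranges of the groups overlapped for *Esrra*, *Nr2f6* and *Nr2c2*. Of the members, 5, among them *Nr5a2* and *Nr6a1* by virtue of the line in which each was higher, passed the filter of 0.1 RPKM on the mean and entered the limma fit of log2(RPKM + 0.1), which called 2 higher and 2 lower (threshold 0.05 on the adjusted p). For the 9000 genes in that fit, 19.9% were called higher and 15.9% lower. With limma voom on the recovered reads all 7 were tested and the same 4 were called, 2 in each direction, where 21.9% of 12657 genes were higher and 21.9% were lower. The RPKM ranges of the groups did not overlap for 4 of the 7 members and for 37.8% of those 12657 genes. With the replicate number as a block on log2(RPKM + 0.1), 2 members were called higher and 2 lower, beside 1557 and 1239 of 9000 genes. With that block in the voom fit, added after the data had been seen, 3 members passed the threshold as higher and 3 as lower, beside 22.9% and 23.1% of the 12657 genes. Because the members were selected on this contrast, nothing is read from these counts.

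**Figure D1:**
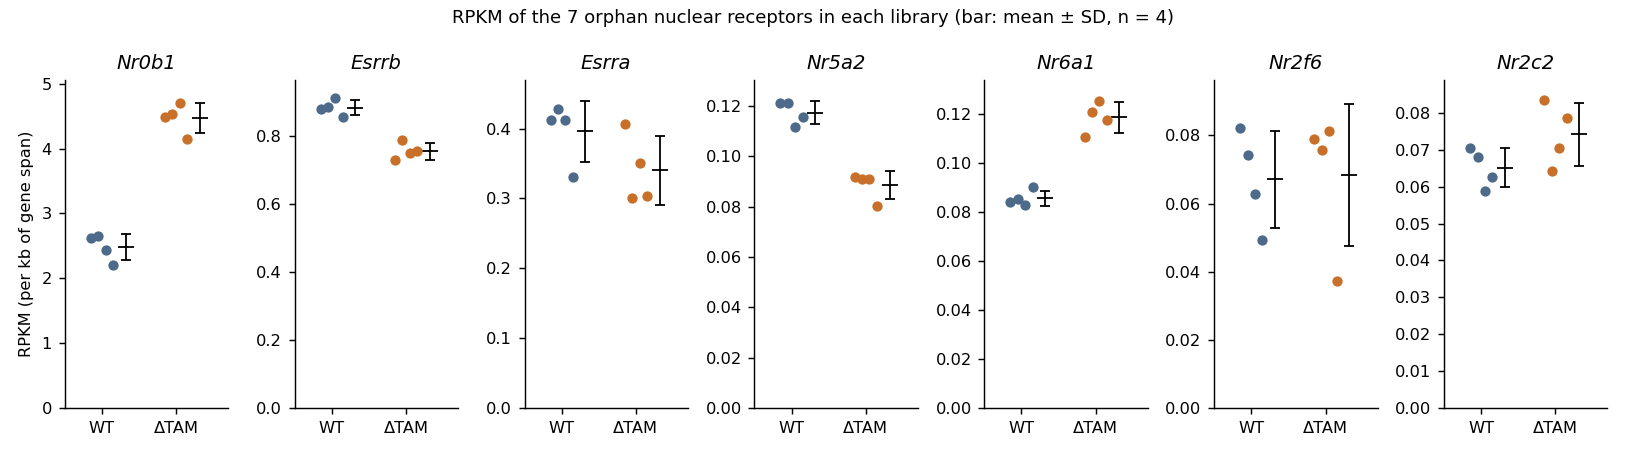
RPKM (per kilobase of gene span) of each member in the 4 libraries of each line, with points for libraries and bars for the mean ± SD. The ESC + F/H-BAZ2Ar ΔTAM points of *Nr0b1* (4.14 to 4.70) and *Nr6a1* (0.110 to 0.125) lie above all ESC + F/H-BAZ2Ar WT points, those of *Esrrb* and *Nr5a2* lie below, and the other 3 genes overlap.

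*Nr0b1* encodes DAX1, the receptor without a classical DNA-binding domain, which in ESCs associates with NR5A2, ESRRB and OCT4. The gene lies on chromosome X of mm10 from 86191764 to 86195947. Replicates 1 to 4 of ESC + F/H-BAZ2Ar WT measured 2.62, 2.65, 2.44 and 2.21 RPKM. In ESC + F/H-BAZ2Ar ΔTAM it was 4.48, 4.53, 4.70 and 4.14 RPKM. The lowest ESC + F/H-BAZ2Ar ΔTAM library was well above the highest ESC + F/H-BAZ2Ar WT library, and replicate 4 was the lowest of both lines. The means were 2.48 ± 0.202 RPKM (SD, n = 4) and 4.46 ± 0.231 RPKM (SD, n = 4), a ratio of 1.80, from 477 to 571 reads per library in ESC + F/H-BAZ2Ar WT and 831 to 1047 in ESC + F/H-BAZ2Ar ΔTAM. The log2 fold change was 0.83 (standard error 0.063) on log2(RPKM + 0.1) and 0.85 (standard error 0.056) on recovered reads, so that the added constant hardly changed it. With any library left out it stayed between 0.77 and 0.86 on the RPKM scale.

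*Esrrb* encodes the oestrogen-related receptor that activates ESC genes without a ligand and is one of the main targets of GSK3 inhibition in 2i medium. It lies on chromosome 12 from 86361117 to 86521628. Measured RPKM in ESC + F/H-BAZ2Ar WT was 0.881, 0.888, 0.912 and 0.857. In ESC + F/H-BAZ2Ar ΔTAM it was 0.729, 0.789, 0.750 and 0.756 RPKM, each below the lowest ESC + F/H-BAZ2Ar WT library. The means were 0.885 ± 0.0225 RPKM (SD, n = 4) and 0.756 ± 0.0250 RPKM (SD, n = 4), a ratio of 0.855. It was by far the most sequenced member, with 5290 to 7340 reads in a library. Its log2 fold change was -0.20 (standard error 0.030) on log2(RPKM + 0.1) and -0.23 (standard error 0.029) on reads. The spread between libraries of a line was 2.54% and 3.31% of the mean, against 1.18% and 1.28% for counting alone.

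*Nr5a2* encodes a receptor that binds the same extended half-site and activates *Pou5f1* in the early epiblast. It lies on chromosome 1 from 136842571 to 136960448. Its 117.877 kb span lowers its RPKM for its number of reads, 470 to 736 per library. Replicates 1 to 4 of ESC + F/H-BAZ2Ar WT had 0.121, 0.121, 0.111 and 0.116 RPKM. Those of ESC + F/H-BAZ2Ar ΔTAM had 0.0918, 0.0910, 0.0909 and 0.0802 RPKM. The groups were separate, and replicate 4 of ESC + F/H-BAZ2Ar ΔTAM was the lowest of all. The means of 0.117 ± 0.00472 RPKM (SD, n = 4) and 0.0885 ± 0.00553 RPKM (SD, n = 4) had a ratio of 0.754. The log2 fold change was -0.21 (standard error 0.042) on log2(RPKM + 0.1) and -0.41 (standard error 0.054) on reads, since a constant of 0.1 is close to the level of this gene.

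*Nr6a1* encodes germ cell nuclear factor, the repressor of *Pou5f1* in differentiating ESCs. It lies on chromosome 2 from 38723370 to 38927688. It measured 0.0842, 0.0851, 0.0829 and 0.0900 RPKM over the ESC + F/H-BAZ2Ar WT libraries. Over the ESC + F/H-BAZ2Ar ΔTAM libraries it measured 0.110, 0.121, 0.125 and 0.118 RPKM, each above every ESC + F/H-BAZ2Ar WT library. The means were 0.0855 ± 0.00311 RPKM (SD, n = 4) and 0.118 ± 0.00631 RPKM (SD, n = 4), a ratio of 1.39, from 825 to 1395 reads per library. Its log2 fold change was 0.24 (standard error 0.041) on log2(RPKM + 0.1) and 0.47 (standard error 0.046) on reads. An antisense gene within the span, *Nr6a1os*, was at 0 reads in every library, and the other 6 genes listed inside *Nr6a1* had at most 1 read in a library.

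*Esrra* encodes the oestrogen-related receptor of mitochondrial metabolism. It lies on chromosome 19 from 6910977 to 6921813. Values of ESC + F/H-BAZ2Ar WT were 0.412, 0.428, 0.413 and 0.331 RPKM. Values of ESC + F/H-BAZ2Ar ΔTAM were 0.406, 0.301, 0.351 and 0.303 RPKM. The groups overlapped, as replicate 4 of ESC + F/H-BAZ2Ar WT was low and replicate 1 of ESC + F/H-BAZ2Ar ΔTAM was high. The log2 fold change was -0.17 (standard error 0.094) on log2(RPKM + 0.1) and was not called. With the replicate number as a block *Esrra* was again not called on this scale (-0.17, standard error 0.070). Voom on reads with that block gave -0.21 (standard error 0.085), past the threshold used for all genes. The 3′ end of *Esrra* overlaps *Trmt112* on the opposite strand, which had 134 to 167 reads per library against 143 to 239 on *Esrra*. The use of strand in counting is not given in the sources used here, so reads in the overlap cannot be assigned to either gene.

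*Nr2f6* and *Nr2c2* had a mean under 0.1 RPKM and were not in the fit on log2(RPKM + 0.1). Without this filter their log2 fold changes on that scale were 0.005 (standard error 0.109) and 0.076 (standard error 0.047). *Nr2f6*, of the COUP-TF family, lies on chromosome 8 from 71374123 to 71381960. It had only 17 to 34 reads per library. Its RPKM was 0.0821, 0.0743, 0.0629 and 0.0495 in ESC + F/H-BAZ2Ar WT. It was 0.0790, 0.0757, 0.0814 and 0.0373 in ESC + F/H-BAZ2Ar ΔTAM. In both lines replicate 4 was the lowest, and the groups overlapped over most of their range. The ratio of the means was 1.02, and the log2 fold change on reads was -0.05 (standard error 0.250), so that a difference of the size seen for *Nr5a2* was not detectable with this error. The overlapping gene *Ocel1*, on the opposite strand, had 27 to 54 reads per library, more than *Nr2f6* on average, and rose on the log2 scale of reads by 0.58 (adjusted p = 0.0106, limma voom). As the use of strand is not known, reads in this overlap cannot be assigned to either gene.

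*Nr2c2* encodes testicular receptor 4, which binds direct repeats of the half-site. It lies on chromosome 6 from 92091390 to 92174294. Across ESC + F/H-BAZ2Ar WT it was 0.0706, 0.0682, 0.0589 and 0.0626 RPKM. For ESC + F/H-BAZ2Ar ΔTAM the values were 0.0835, 0.0642, 0.0704 and 0.0785 RPKM. The upper 2 ESC + F/H-BAZ2Ar ΔTAM libraries, replicates 1 and 4, lay above all of ESC + F/H-BAZ2Ar WT, and the lower 2 lay within its range. The ratio of means was 1.14 from 233 to 378 reads per library. The log2 fold change on reads was 0.19 (standard error 0.081) and was not called, whereas voom with the replicate block gave 0.19 (standard error 0.072), past the threshold used for all genes. *Mrps25*, which overlaps *Nr2c2* from the opposite strand, had 242 to 312 reads in a library and differed by 0.03 on the log2 scale of reads (adjusted p = 0.738, limma voom). Here too reads in the overlap cannot be assigned to either gene, as the use of strand is not known.

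Levels of different members can be compared only per length of transcript. For this the recovered reads were divided by the kilobases of the union of exons in GENCODE and by the library's reads on genes in M, which gives an exon-based RPKM. On this scale *Esrrb* was the highest member in ESC + F/H-BAZ2Ar WT, at 158 ± 3.66 exon-based RPKM (SD, n = 4), and *Nr0b1* was next at 38.5 ± 3.04 (SD, n = 4). *Nr5a2* had 15.8 ± 0.619 (SD, n = 4), *Nr6a1* 10.9 ± 0.424 (SD, n = 4) and *Esrra* 6.57 ± 0.714 (SD, n = 4) exon-based RPKM. *Nr2c2* with 2.43 ± 0.195 (SD, n = 4) and *Nr2f6* with 1.19 ± 0.249 (SD, n = 4) were the lowest. No neighbours in this order overlapped between libraries. In ESC + F/H-BAZ2Ar ΔTAM the order was *Esrrb* (135 ± 3.95), *Nr0b1* (69.2 ± 3.49), *Nr6a1* (14.99 ± 0.729), *Nr5a2* (11.8 ± 0.745), *Esrra* (5.64 ± 0.844), *Nr2c2* (2.76 ± 0.332) and *Nr2f6* (1.204 ± 0.367), in the same unit (SD, n = 4). Again no neighbours overlapped.

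On the exon scale the order thus differed at a single place. *Nr5a2* was above *Nr6a1* in each ESC + F/H-BAZ2Ar WT library, with a ratio of 1.36 to 1.52 on the exon scale, and below it in each ESC + F/H-BAZ2Ar ΔTAM library, with a ratio of 0.722 to 0.881. Which of them is above depends on the exon length used, 5.899 kb for *Nr5a2* and 10.824 kb for *Nr6a1*. These are unions of exons and need not be the lengths of the transcripts expressed. In reads *Nr6a1* was above *Nr5a2* already in ESC + F/H-BAZ2Ar WT, with 825 to 949 against 640 to 736 per library. The ratio of *Esrrb* to *Nr0b1* was 4.11 ± 0.305 (SD, n = 4) in ESC + F/H-BAZ2Ar WT and 1.95 ± 0.120 (SD, n = 4) in ESC + F/H-BAZ2Ar ΔTAM. On the deposited scale per gene span the order was another one, because *Nr0b1* spans only 4.183 kb and *Esrrb* 160.511 kb. There *Nr0b1* came first and *Esrrb* second in both lines.

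The members made up most of the nuclear receptor mRNA. Their summed level per exon length was 67.1 ± 0.761% of that of the whole superfamily in ESC + F/H-BAZ2Ar WT and 67.4 ± 0.601% in ESC + F/H-BAZ2Ar ΔTAM (SD, n = 4). *Esrrb* alone took 45.4 ± 1.14% in ESC + F/H-BAZ2Ar WT and 37.7 ± 0.907% in ESC + F/H-BAZ2Ar ΔTAM (SD, n = 4). *Nr0b1* took 11.1 ± 0.564% and 19.4 ± 0.788% (SD, n = 4). The share of these 2 genes together was 55.4% to 56.9% over the ESC + F/H-BAZ2Ar WT libraries and 56.4% to 57.7% over the ESC + F/H-BAZ2Ar ΔTAM libraries, ranges that overlap. Within the superfamily *Esrrb* ranked 1 and *Nr0b1* ranked 2 by level per exon length over all libraries, *Nr5a2* 7, *Nr6a1* 8, *Esrra* 11, *Nr2c2* 17 and *Nr2f6* 19. Ranks from 5 to 8 lie close together, and *Nr5a2* was above *Nr6a1* in one line and below it in the other. Exon lengths of 4 of the 49 genes were matched by symbol and not by coordinates.

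**Figure D2:**
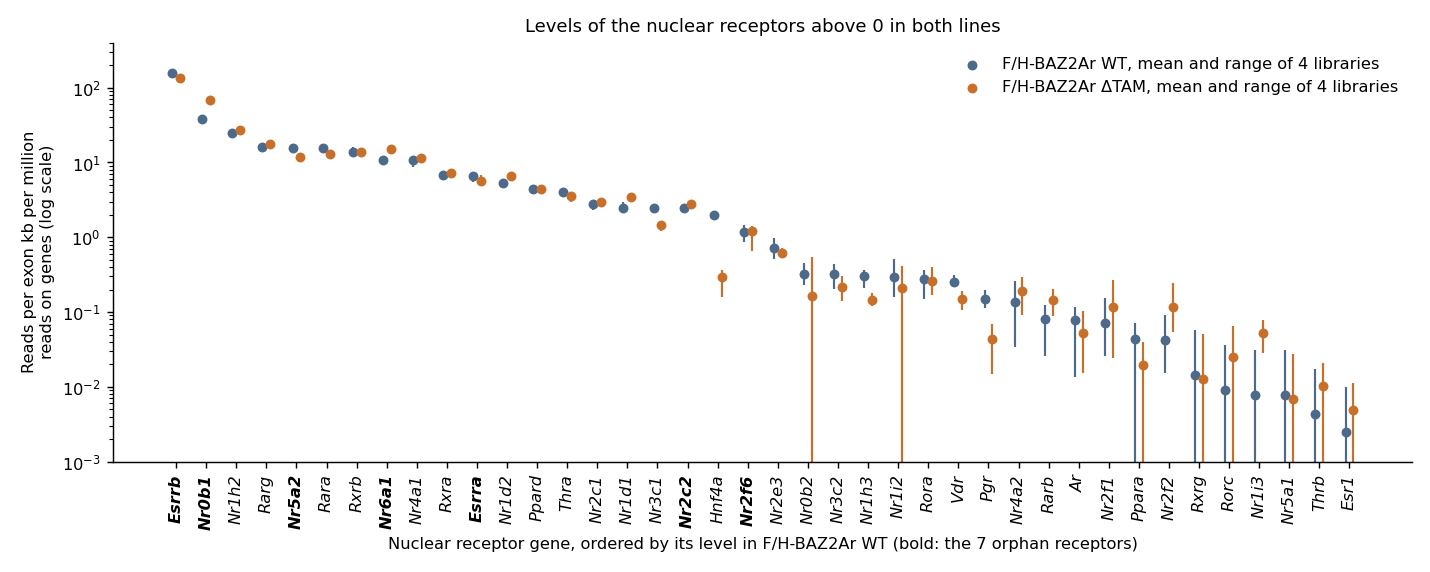
Mean level of each nuclear receptor gene that was above 0 in both lines, in exon-based RPKM (reads per exon kilobase and per M reads on genes, log axis). The range of the 4 libraries of each line is a vertical bar. A bar that reaches the lower edge includes a library at 0. *Esrrb* (158 and 135) and *Nr0b1* (38.5 and 69.2) lie above all other genes in both lines, and *Hnf4a* shows a wide gap between the lines at a low level.

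The closest paralogs of the members differed widely in level. *Esrrg*, the other oestrogen-related receptor, was at 0 reads in every library. *Nr5a1*, the paralog of *Nr5a2*, had at most 1 read in a library, and *Nr0b2*, the paralog of *Nr0b1*, had at most 4. *Nr2f1* and *Nr2f2*, related to *Nr2f6*, had at most 9 and 14 reads. *Nr2c1* alone was at the level of its paralog, with 2.76 exon-based RPKM in ESC + F/H-BAZ2Ar WT and 2.93 in ESC + F/H-BAZ2Ar ΔTAM, and its log2 fold change on reads was 0.08 (adjusted p = 0.617, limma voom).

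Of the 42 other nuclear receptors, 35 were above 0 in a library and 7 were listed at 0 throughout. In the fit on log2(RPKM + 0.1), 7 were tested, of which 1 was higher and 1 lower, beside 19.9% and 15.9% of all 9000 genes. *Nr1d1*, a circadian repressor, rose from 0.155 ± 0.0206 to 0.215 ± 0.0257 RPKM (SD, n = 4), a log2 fold change of 0.31 (adjusted p = 0.0168, limma with Benjamini-Hochberg adjustment). *Rara*, a retinoic acid receptor, fell from 0.212 ± 0.0137 to 0.179 ± 0.00977 RPKM (SD, n = 4), a log2 fold change of -0.16 (adjusted p = 0.0233, limma). The call of *Rara* was lost with the replicate block (adjusted p = 0.0718, limma) and without ESC + F/H-BAZ2Ar WT replicate 2 or 3 or ESC + F/H-BAZ2Ar ΔTAM replicate 1, 2 or 3, where the adjusted p reached 0.0614. On recovered reads 16 of the other receptors were tested, and 3 were higher and 3 lower, beside 21.9% of 12657 genes in each direction. The 2 largest were genes under the RPKM filter. *Hnf4a*, a receptor of liver and endoderm, had 65 to 77 reads per ESC + F/H-BAZ2Ar WT library and 5 to 14 per ESC + F/H-BAZ2Ar ΔTAM library, a log2 fold change of -2.73 (adjusted p = 5.61e-09, limma voom). *Nr3c1*, the glucocorticoid receptor, had 135 to 152 and 61 to 98 reads, a log2 fold change of -0.78 (adjusted p = 5.6e-06, limma voom). *Nr1d1* differed by 0.47 (adjusted p = 0.00792) and *Rara* by -0.23 (adjusted p = 0.00297) on reads in limma voom. *Nr1d2*, the paralog of *Nr1d1*, was higher on this scale by 0.29 (adjusted p = 0.0106, limma voom), as was *Rarg* by 0.15 (adjusted p = 0.0344, limma voom).

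**Figure D3:**
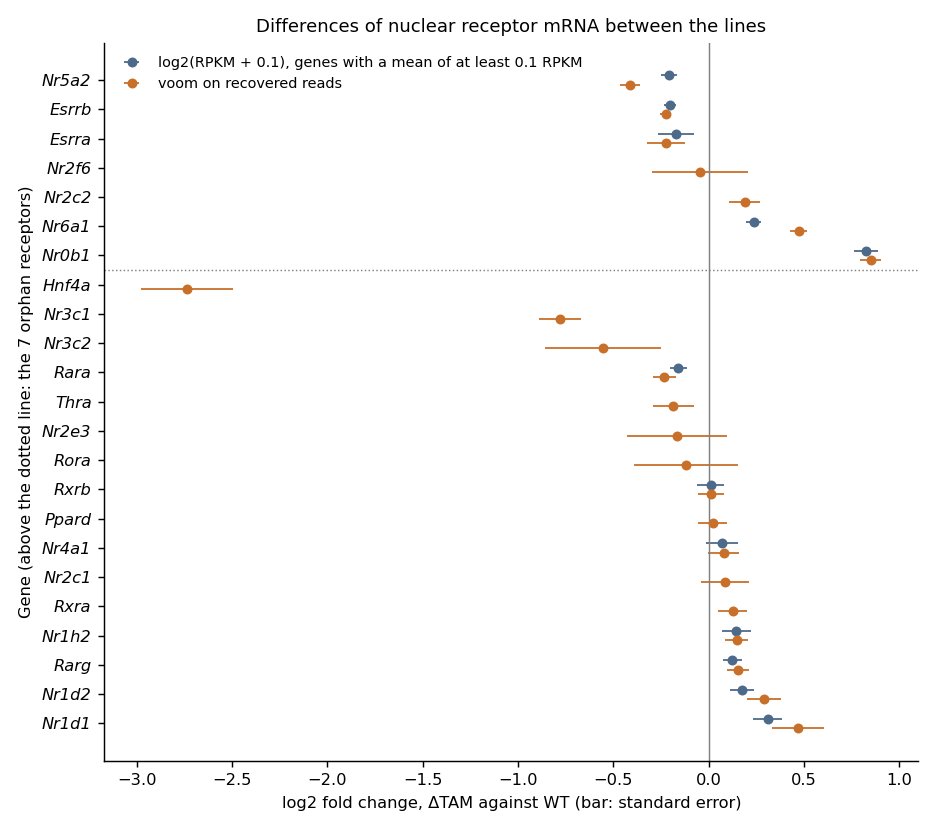
The log2 fold change of ESC + F/H-BAZ2Ar ΔTAM against ESC + F/H-BAZ2Ar WT, with standard errors, for the 7 members (above the dotted line) and the 16 other nuclear receptors that average 10 reads or more, on log2(RPKM + 0.1) and on recovered reads. *Nr5a2* and *Nr6a1* move away from 0 on the read scale (-0.41 and 0.47), and *Hnf4a* (-2.73) is the lowest of all genes shown.

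Coregulators are proteins that receptors recruit to switch target genes on or off. The counts of these and the following lists stand beside 19.9% of 9000 genes called higher and 15.9% lower by limma. By voom they stand beside 21.9% of 12657 genes in each direction. Of 10 coactivator genes, 5 were tested on log2(RPKM + 0.1), and 3 rose and 0 fell by limma (3 at an unadjusted p under 0.05 in either direction). By limma voom 9 were tested, and 4 rose and 1 fell. Those that rose by voom were *Ncoa3*, *Ep300*, *Med1* and, named after its value was seen, the acetyltransferase gene *Crebbp*, the paralog of *Ep300*, with 0.0628 and 0.0759 RPKM on average in ESC + F/H-BAZ2Ar WT and ESC + F/H-BAZ2Ar ΔTAM and a log2 fold change on reads of 0.28 (adjusted p = 0.000765, limma voom). The median log2 fold change of the tested coactivators was 0.10, beside 0.01 over all genes tested, and by voom it was 0.05 over 9 genes, beside -0.003 over all genes. *Ncoa3*, which ESRRB uses in ESCs, rose from 0.473 ± 0.0150 to 0.587 ± 0.0116 RPKM (SD, n = 4), a log2 fold change of 0.26 (adjusted p = 0.000344, limma). *Ep300*, a histone acetyltransferase, rose by 0.16 (adjusted p = 0.0244, limma), and the Mediator subunit *Med1* by 0.10 (adjusted p = 0.0290, limma). The gene that fell by voom, named after its value was seen, was *Ppargc1b*, a coactivator of the oestrogen-related receptors, which had 48 to 90 reads per ESC + F/H-BAZ2Ar WT library and 35 to 53 per ESC + F/H-BAZ2Ar ΔTAM library, a log2 fold change of -0.64 (adjusted p = 0.00795, limma voom). With the replicate block only *Ncoa3* was called on log2(RPKM + 0.1), and the adjusted p was 0.0564 for *Ep300* and 0.0569 for *Med1* (limma). With a library left out, *Ep300* was called in 4 of 8 fits (adjusted p up to 0.0621, limma) and *Med1* in 2 of 8, those without ESC + F/H-BAZ2Ar WT replicate 1 or ESC + F/H-BAZ2Ar ΔTAM replicate 4 (adjusted p up to 0.0693 in the others, limma). *Ep300* was also not called without the filter on low values (adjusted p = 0.0503, limma), nor *Med1* with quantile normalization (adjusted p = 0.0680, limma). The losses of *Ep300* with a library left out were without ESC + F/H-BAZ2Ar WT replicate 3 and ESC + F/H-BAZ2Ar ΔTAM replicates 1, 3 and 4.

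Of 9 corepressor genes, 8 were tested, and 3 rose and 0 fell by limma (4 at an unadjusted p under 0.05 in either direction), with a median log2 fold change of -0.02. By limma voom 9 were tested, and 3 rose and 2 fell, *Tbl1x* (-0.16, adjusted p = 0.00431) and *Tbl1xr1* (-0.11, adjusted p = 0.0435), both named after their values were seen. *Rcor2*, a subunit of the histone demethylase complex of ESCs, rose from 1.76 ± 0.110 to 2.28 ± 0.0776 RPKM (SD, n = 4), a log2 fold change of 0.36 (adjusted p = 0.001001, limma). *Kdm1a*, the catalytic demethylase of the same complex, rose by 0.17 (adjusted p = 0.00272, limma). *Rcor1*, the paralog of *Rcor2*, rose by 0.13 (adjusted p = 0.0432, limma). The call of *Rcor1* was lost with the replicate block (adjusted p = 0.122, limma), without the filter on low values (adjusted p = 0.0644, limma) and with median-ratio scaling or quantile normalization (adjusted p = 0.0576 and 0.0867, limma). With a library left out it was called in 2 of 8 fits, those without ESC + F/H-BAZ2Ar WT replicate 4 or ESC + F/H-BAZ2Ar ΔTAM replicate 4 (adjusted p up to 0.104 in the others, limma). Of 3 genes for partners of NR2C2 only *Nr2c2ap*, which encodes a protein that binds NR2C2, was tested on log2(RPKM + 0.1), and voom tested *Nr2c1* besides. It fell from 0.370 ± 0.0467 to 0.235 ± 0.0603 RPKM (SD, n = 4), a log2 fold change of -0.50 (adjusted p = 0.0214, limma), with the call lost without ESC + F/H-BAZ2Ar WT replicate 3 or 4 or ESC + F/H-BAZ2Ar ΔTAM replicate 3 (adjusted p up to 0.0565, limma) and without the filter on low values (adjusted p = 0.0537, limma).

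ESRRB, NR5A2 and NR0B1 act within a gene network of ESCs, of which 12 genes were examined, most of them genes of transcription factors. All 12 were tested, and 3 rose and 4 fell, beside 19.9% and 15.9% of all 9000 genes, with a median log2 fold change of -0.01. *Tcl1*, a coactivator of AKT kinase, fell from 2.39 ± 0.140 to 1.55 ± 0.0895 RPKM (SD, n = 4), a log2 fold change of -0.59 (adjusted p = 0.000161, limma). *Sox2* fell from 27.3 ± 0.343 to 20.4 ± 0.735 RPKM (SD, n = 4), a log2 fold change of -0.42 (adjusted p = 6.86e-05, limma). *Tbx3* fell from 2.77 ± 0.0661 to 2.06 ± 0.0606 RPKM (SD, n = 4), a log2 fold change of -0.41 (adjusted p = 8.0e-05, limma). Named after their values were seen, *Klf4* fell (-0.39), and *Sall4* (0.33), *Prdm14* (0.13) and *Stat3* (0.09) rose on log2(RPKM + 0.1). *Stat3* lost its call with the replicate block (adjusted p = 0.0752, limma), with median-ratio scaling or quantile normalization (adjusted p = 0.0521 and 0.0918, limma) and in 6 of 8 fits with a library left out, all but those without ESC + F/H-BAZ2Ar ΔTAM replicate 1 or 3 (adjusted p up to 0.0817, limma). *Prdm14* lost its call in 5 of 8, those without ESC + F/H-BAZ2Ar WT replicate 1, 2 or 3 or ESC + F/H-BAZ2Ar ΔTAM replicate 2 or 4 (adjusted p up to 0.0595, limma), and with quantile normalization (adjusted p = 0.0699, limma). *Pou5f1*, which NR5A2 activates and NR6A1 represses, had 18.5 ± 0.717 and 17.7 ± 0.738 RPKM (SD, n = 4), a log2 fold change of -0.06 (limma, adjusted p = 0.304, standard error 0.040).

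Of 11 metabolic targets of the oestrogen-related receptors, 8 were tested, and 2 rose and 0 fell by limma (3 at an unadjusted p under 0.05 in either direction), with a median log2 fold change of -0.01. By limma voom 2 rose and 1 fell, *Atp5b* (-0.09, adjusted p = 0.00587), named after its value was seen. *Acadm*, an enzyme of fatty acid oxidation, rose from 0.822 ± 0.0194 to 0.9998 ± 0.0128 RPKM (SD, n = 4), a log2 fold change of 0.25 (adjusted p = 0.000225, limma). *Cycs*, which encodes cytochrome c, rose by 0.29 (adjusted p = 0.0436, limma) with overlapping ranges, and was called in only 2 of 8 fits with a library left out, those without ESC + F/H-BAZ2Ar WT replicate 3 or ESC + F/H-BAZ2Ar ΔTAM replicate 1 (adjusted p up to 0.106 in the others, limma). The call of *Cycs* was also lost without the filter on low values (adjusted p = 0.0957, limma) and with median-ratio scaling or quantile normalization (adjusted p = 0.0512 and 0.0790, limma).

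**Figure D4:**
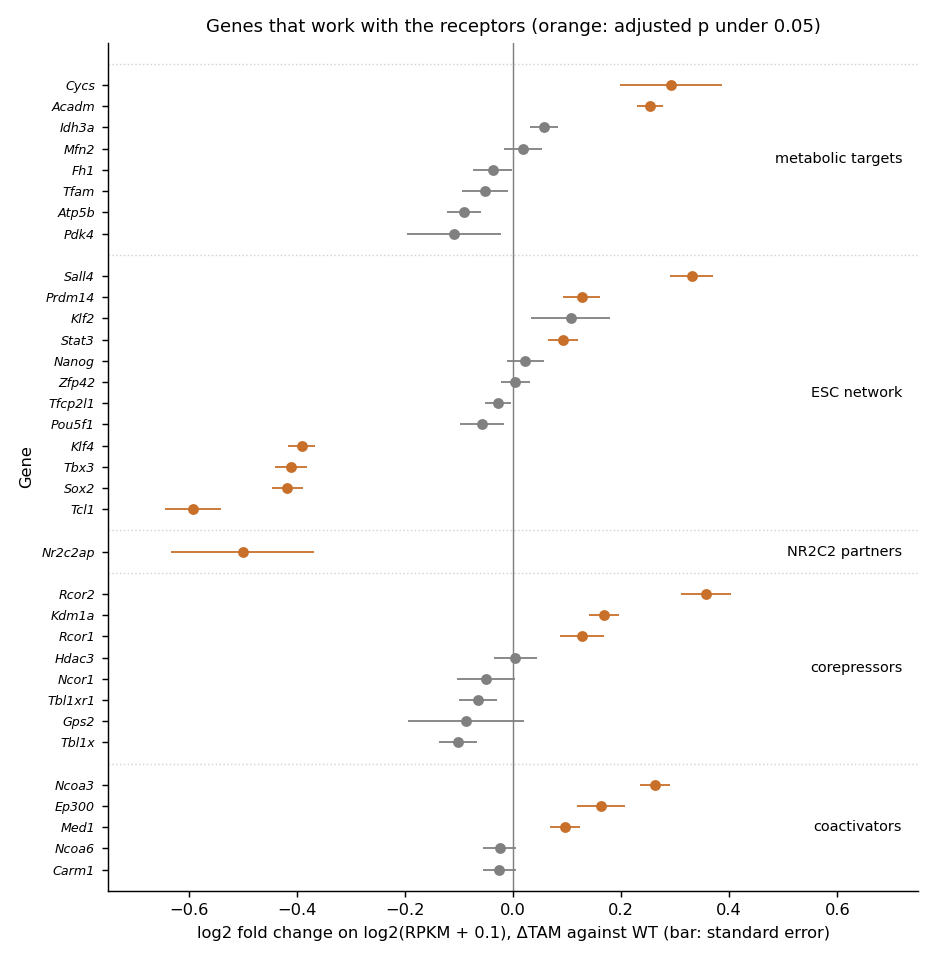
The log2 fold change on log2(RPKM + 0.1), with its standard error, of each tested gene of the coactivators, corepressors, NR2C2 partners, ESC network and metabolic targets, orange where the adjusted p was under 0.05. Genes of every list with more than 1 tested gene lie on both sides of 0, from *Tcl1* (-0.59) to *Rcor2* (0.36).

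The nearest tested gene on either side of each member, 14 in all, was examined for changes of the surrounding region. Of these neighbours, beside 19.9% higher and 15.9% lower of all 9000 genes, 1 was higher and 13 were not called by limma on log2(RPKM + 0.1). *Ocel1*, which overlaps *Nr2f6*, was under the filter of this fit and is not among them. The one called was *Zfx*, a zinc finger gene 7878.7 kb from *Nr0b1*, with 0.127 RPKM in ESC + F/H-BAZ2Ar WT and 0.160 RPKM in ESC + F/H-BAZ2Ar ΔTAM on average, a log2 fold change of 0.19 (adjusted p = 0.0382, limma). With a library left out *Zfx* was called in 1 of 8 fits, that without ESC + F/H-BAZ2Ar ΔTAM replicate 2 (adjusted p up to 0.0934 in the others, limma), and it was not called without the filter on low values (adjusted p = 0.0746, limma). It was called with the replicate block (adjusted p = 0.0417, limma) and on reads, with 0.34 (adjusted p = 0.00124, limma voom). On its other side *Nr0b1* has *Tab3*, at 557.3 kb, with a log2 fold change of -0.01 (adjusted p = 0.932, limma). Neighbours of *Nr6a1* were closer, and *Psmb7* at 79.3 kb (0.02, adjusted p = 0.508) and *Rpl35* at 73.9 kb (-0.11, adjusted p = 0.300) were not called by limma. For *Esrrb*, *Erg28* at 536.6 kb (0.06, adjusted p = 0.518) and *Angel1* at 178.9 kb (-0.07, adjusted p = 0.268) were not called by limma either.

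Among 2147 other genes that averaged 1 RPKM or more, those whose centred log2(RPKM + 0.1) values over the 8 libraries lay closest to those of *Nr0b1* were *Gbx2*, *Hsd17b14* and *Tfrc*, at root-mean-square distances of 0.066, 0.085 and 0.093. *Gbx2* encodes a homeobox factor, *Hsd17b14* a steroid dehydrogenase and *Tfrc* the transferrin receptor. *Gbx2* was at 0.797 ± 0.0828 RPKM in ESC + F/H-BAZ2Ar WT and at 1.59 ± 0.101 RPKM in ESC + F/H-BAZ2Ar ΔTAM (SD, n = 4). *Tfrc* had 2.07 ± 0.0326 and 3.48 ± 0.0607 RPKM (SD, n = 4). *Nr6a1* was closest to *Nucks1*, *Srsf1* and *Ccnb1*, at 0.016, 0.024 and 0.025. It was measured on log2(RPKM + 0.1), where the constant shrinks the difference of *Nr6a1*: on reads the log2 fold changes of the 3 genes were 0.23, 0.24 and 0.22, against 0.47 for *Nr6a1*. Of these *Srsf1*, a splicing factor, had 11.8 ± 0.287 and 13.9 ± 0.507 RPKM (SD, n = 4), and *Ccnb1*, the mitotic cyclin, 4.997 ± 0.0916 and 5.82 ± 0.168 RPKM (SD, n = 4). This likeness is a description over 8 libraries, and the difference between the lines makes up most of it.

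**Figure D5:**
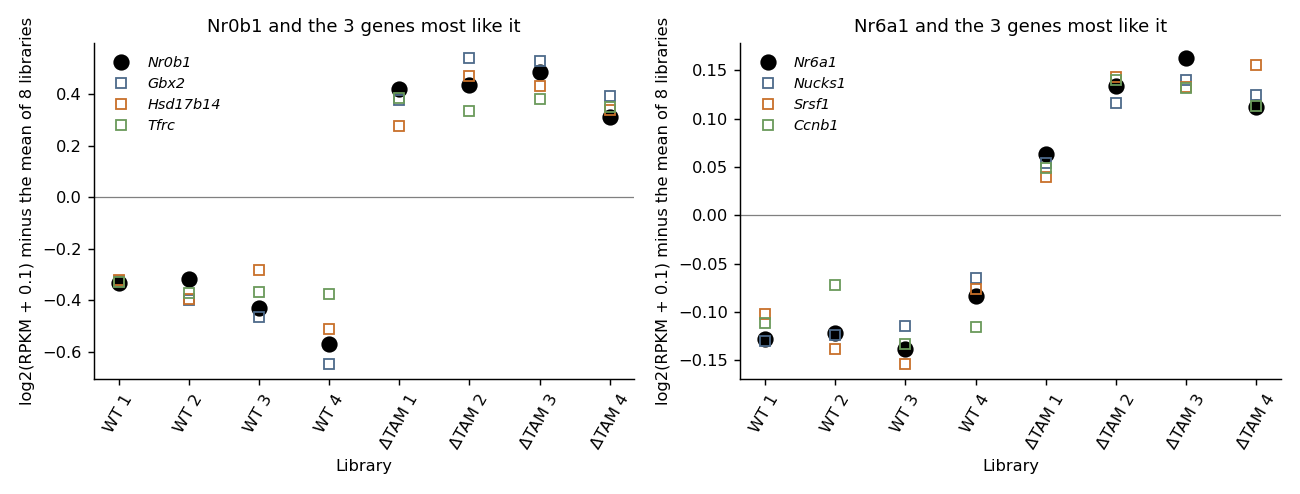
Centred log2(RPKM + 0.1) of *Nr0b1* and *Nr6a1* (filled circles) and of the 3 genes most like each (open squares) in the 8 libraries. All values lie below 0 in ESC + F/H-BAZ2Ar WT and above 0 in ESC + F/H-BAZ2Ar ΔTAM.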

How the data were processed

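RNA-seq of 4 libraries of ESC + F/H-BAZ2Ar WT and 4 of ESC + F/H-BAZ2Ar ΔTAM was analysed, grouped by the labels. The authors removed ribosomal reads, used Trimmomatic for adapters and STAR for mapping to mm10, and deposited RPKM per gene and library. The annotation release and use of strand are not given in the sources used here. Multiplied by gene span, 99.5% to 99.6% of the deposited RPKM values were whole multiples (within 0.05) of a step, the value of 1 read, and reads were recovered from them (library totals 43.8 M to 58.1 M). Counting intervals cover counting error only. Of 51288 entries, 386 repeats were set aside. Python 3.11.15 was used for exon lengths (GENCODE vM21) and sequences (RefSeq).

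limma 3.58.1 in R 4.3.3 was run on log2(RPKM + 0.1) for the 9000 genes averaging 0.1 RPKM or more (lmFit, eBayes with trend, Benjamini-Hochberg, adjusted p under 0.05). Fold changes on this scale understate those of low genes. limma voom was run on genes averaging 10 recovered reads or more. On simulated reads with 200 genes changed by an absolute log2 fold change of 1, both fits recovered 100%, with 10 and 9 false calls. The changed genes were drawn from levels above those of *Nr5a2*, *Nr6a1*, *Nr2f6* and *Nr2c2*, and all genes were given the same small spread beyond counting. Recovery of the smaller changes reported here, or at the levels of those 4 members, was therefore not simulated. Deviations of same-numbered libraries from their group means correlated by 0.144 to 0.332 across genes, so the replicate number was taken to pair them, from the data and not from the labels, and was tried as a block. Other alternatives were the pseudocount, the filter, scaling, no trend and each library left out.

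The members, gene lists and tests were chosen with earlier results of these data known. Another 2 genes of the lists as first drawn were left out of every list count and are not reported here. Named genes were the members, the 6 other nuclear receptors and 3 genes of each list with the largest change among those called, called neighbours, and the 3 genes most like the 2 most changed members. Values were given besides for paralogs and some uncalled neighbours, and for *Pou5f1*, chosen after their values were seen.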

Additional observations from a re-analysis of the deposited data

Results flagged for a closer look

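In 5 of the 58 groups of 4 libraries checked, 1 library stood apart from the other 3 by Dixon's criterion at the 95% level, and chance alone marks about 5% of such groups. For *Esrra*, replicate 4 of ESC + F/H-BAZ2Ar WT had 0.331 RPKM, against 0.412 to 0.428 RPKM in the others. For *Nr5a2*, replicate 4 of ESC + F/H-BAZ2Ar ΔTAM had 0.0802 RPKM, against 0.0909 to 0.0918 RPKM. For *Nr2f6*, replicate 4 of ESC + F/H-BAZ2Ar ΔTAM had 0.0373 RPKM, against 0.0757 to 0.0814 RPKM, at 17 reads. Of the coactivators, *Ep300* had 0.420 RPKM in replicate 3 of ESC + F/H-BAZ2Ar WT, against 0.455 to 0.462 RPKM. *Tcl1* had 1.68 RPKM in replicate 2 of ESC + F/H-BAZ2Ar ΔTAM, against 1.50 to 1.51 RPKM in the others.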

How the results depend on the processing

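The direction of *Nr0b1*, *Esrrb*, *Nr5a2* and *Nr6a1* was the same under each alternative that could be fitted for them. The filter at a mean of 1 RPKM left only *Nr0b1* of these, and *Nr6a1* fell under the main filter without ESC + F/H-BAZ2Ar ΔTAM replicate 2, 3 or 4. At a pseudocount of 1 RPKM the log2 fold change was 0.65 for *Nr0b1*, -0.10 for *Esrrb*, -0.038 for *Nr5a2*, 0.043 for *Nr6a1* and 0.012 for *Nr2c2*, and at 0.01 RPKM it was -0.37 for *Nr5a2*, 0.43 for *Nr6a1* and 0.16 for *Nr2c2*. Quantile normalization gave -0.27 for *Nr5a2*. On recovered reads with voom it was -0.41 for *Nr5a2*, 0.47 for *Nr6a1* and 0.19 for *Nr2c2*, and with the replicate block added, a fit chosen after seeing the data, -0.41, 0.47 and 0.19. The sign of *Nr2f6*, which was not called, changed with the library left out (-0.048 to 0.10).

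The replicate block on log2(RPKM + 0.1) gave 1557 genes higher and 1239 lower against 1790 and 1435 without it, 0 other nuclear receptors lower against 1, and 1 coactivator and 2 corepressors called against 3 and 3. A filter at a mean of 1 RPKM left 590 genes higher, 399 lower and 0 other nuclear receptors in either direction. No filter gave 5 other nuclear receptors lower. With voom 2773 genes were higher and 2778 lower, as were 3 and 3 other nuclear receptors, and 5 coactivators and 5 corepressors were called. With a library left out, the count of other nuclear receptors was 1 to 2 higher and 0 to 1 lower.

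*Nr2f6* had 17 to 34 reads per library. Counting alone gives an error of 19.4% in ESC + F/H-BAZ2Ar WT and 19.5% in ESC + F/H-BAZ2Ar ΔTAM, and the observed spread was 21.2% and 30.4%. Calls of genes near the threshold depended on single libraries, the filter or the scaling, and the cause was not tested.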
